A study of Mus musculus with 11 samples.

Results

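The BCL2 family genes described here were Bcl2, Bcl2l1, Mcl1, Bax, Bak1, Bbc3, Pmaip1, Bcl2l11, Bid and Bad, 10 of the 53801 genes quantified in 11 RNA-seq libraries of mouse hippocampal neural stem cells (NSCs). They were chosen by name as pro- and anti-apoptotic members of the family, and each symbol was matched to its gene identifier through the GENCODE mouse annotation. BCL2 proteins share short homology motifs and decide at the outer mitochondrial membrane whether cytochrome c is released to start the caspase cascade. The anti-apoptotic proteins BCL2, BCL-XL (Bcl2l1) and MCL1 hold the pore-forming effectors BAX and BAK (Bak1) in check. The BH3-only proteins PUMA (Bbc3), NOXA (Pmaip1), BIM (Bcl2l11), BID and BAD bind the anti-apoptotic proteins or the effectors and so tip this balance. In the developing brain the family sets how many neural progenitors and young neurons survive.

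The cells were primary NSCs from the hippocampus of wild-type C57BL/6 embryos at E14.5, cultured for 7 days with 1 μM 4HBP or with ethanol vehicle. The sample labels spell the compound 4-Hydroxybenzoic acid (4HBP), whereas the methods of the study describe 4-hydroxybenzophenone, a metabolite of benzophenone ultraviolet filters. Each treatment was given in proliferation medium, which held EGF and bFGF, and in differentiation medium, which held no growth factor and more B27 supplement. There were 3 libraries with 4HBP and 3 with vehicle in proliferation medium, and 3 with 4HBP and 2 with vehicle in differentiation medium. The labels do not say whether replicates came from separate cultures or animals, so the p-values measure the spread between these libraries, which may be technical. They also do not say whether the libraries of the 2 media were prepared together, so medium and any difference in preparation cannot be told apart.

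The libraries held 20822921 to 23438463 expected counts each, and a count of 3 corresponded to 0.128 to 0.144 CPM, a scale that gives each count relative to the size of its library. The lowest count of any member in any library was 106, so all 10 members were tested in every comparison. All 6 NSC markers (Nes, Sox2, Pax6, Fabp7, Hes5 and Vim) were detected, with a summed level of 4300 to 5261 CPM in proliferation medium and 1537 to 1559 CPM in differentiation medium. Markers of other neural cells were present in every library as well. Those of astrocytes summed to 2873 to 5242 CPM in proliferation and 6230 to 6485 CPM in differentiation medium, those of the oligodendrocyte lineage to 1754 to 3328 and 6796 to 7122 CPM, and those of neurons to 941.9 to 1059 and 904.2 to 940 CPM, so the markers do not show a culture of NSCs alone. Most of the neuron sum was Map2, with means of 836 CPM in proliferation and 666 CPM in differentiation medium in vehicle cultures. By medium in these cultures 3 of the 6 neuron markers were higher and 1 was lower in differentiation medium, against 30.8% and 30.6% of all genes tested. Markers of microglia summed to at most 3.81 CPM and those of endothelium to at most 19.6 CPM, and mesenchyme markers reached 30.5 CPM in differentiation medium. In proliferation medium the third 4HBP library stood apart from its replicates. Its mean chi-square per gene against the other two was 25.6 and 23, compared with 5.62 between those and at most 12.7 between vehicle libraries, and members whose call or size turned on it are also given without it.

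Levels per transcript length, on the TPM scale, which corrects each library for transcript length and depth, ranked Bax, an effector, first in all 4 groups and Bcl2 last or among the last 3. In vehicle cultures in proliferation medium the mean level was 101 TPM for Bax, 89.2 for Bak1, 66.1 for Mcl1, 40.7 for Bcl2l1 and 29.0 for Bad. The remaining members lay far lower, with Bbc3 at 11.3 TPM, Bcl2l11 at 8.21, Bid at 5.31, Pmaip1 at 3.50 and Bcl2 at 2.81. The ranges of neighbours in this order did not overlap except for Bid and Pmaip1, and Pmaip1 and Bcl2. The whole order held a span from 2.65 TPM for Bcl2 to 105 TPM for Bax in single vehicle libraries.

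In vehicle cultures in differentiation medium Bax stood at 243 TPM, ahead of Mcl1 at 93.6 and Bak1 at 77.8 TPM, so that Mcl1 and Bak1 had changed places. Pmaip1, at 23.8 TPM, followed Bbc3 at 28.2 TPM, and their ranges overlapped. Bcl2, Bid and Bcl2l11 formed the lowest group, with means of 7.90, 7.89 and 7.50 TPM and overlapping ranges. TPM is a share of the library, and a single mitochondrial gene, mt-Atp8, took 129700 to 159500 TPM in proliferation medium against 44810 to 47870 TPM in differentiation medium. Changes between libraries are therefore given below in CPM normalized by trimmed mean of M-values (TMM), a scale on which genes are not compared with each other.

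**Figure D1:**
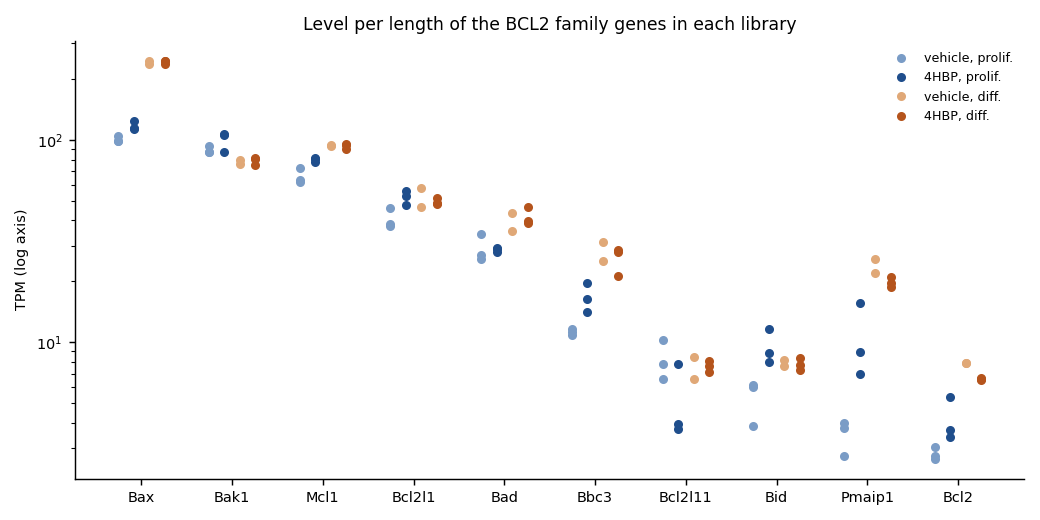
Level of each BCL2 family gene in TPM (log axis) in each of the 11 libraries, one point a library, ordered by the mean in vehicle cultures in proliferation medium. Bax was highest in every group, with 99.3 to 124 TPM in proliferation medium and 236 to 247 TPM in differentiation medium.

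The first comparison asked what 7 days of 4HBP did to the family in proliferation medium. In this comparison 3 members rose and none fell by edgeR's quasi-likelihood test at a Benjamini-Hochberg adjusted p under 0.05. These were 2 BH3-only genes, Pmaip1 and Bid, and 1 anti-apoptotic gene, Bcl2l1, whereas neither effector passed the test. Of 14449 genes tested 7.43% were called, 3.74% as higher and 3.69% as lower. The median log2 fold change was 0.30 over the 10 members and 0.00 over all genes, and the median absolute change was 0.36 over the members and 0.17 over all genes. In 7 of the 10 members the 3 libraries with 4HBP did not overlap the 3 with vehicle, and the same held for 31.3% of all genes tested. With limma on log2(CPM+1) none of the 10 members and 18 genes were called at the adjusted threshold, with 4371 genes at an unadjusted p under 0.05. The call rule of the study, an unadjusted p under 0.05 in that limma test with an absolute log2 fold change over 0.58, called 2 members, Pmaip1 and Bid, and 651 genes; it was added after seeing the data. DESeq2, and edgeR with no filter on low counts, called 5 members, with Bcl2 as higher and Bcl2l11 as lower beside the 3. Over all genes these called 1633 of 14449 and 1546 of 23759, against 1074 of 14449 in the main fit. Fitting all 11 libraries together in edgeR called 7, with Bcl2, Mcl1 and Bax as higher and Bcl2l11 as lower beside the 3. More genes were called there as well, 2668 of 15920. The fit of all 11 libraries uses an estimate of the spread between replicates that both media share. As edgeR's common coefficient of variation, the spread was 0.117 in the proliferation libraries and 0.0368 in the differentiation libraries. Over all 11 libraries it was 0.0907, below the value in proliferation medium and above that in differentiation medium.

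Among the BH3-only genes, Pmaip1 moved most. Pmaip1 encodes NOXA, which binds MCL1 and promotes its degradation, and lies on chromosome 18. It read 6.98, 5.23 and 7.68 CPM in vehicle replicates 1 to 3 and 13.6, 16.7 and 27.5 CPM in the 4HBP replicates, so every 4HBP library was above every vehicle library and the third was the highest. The change was 2.90-fold, or 1.54 ± 0.26 on the log2 scale (SE, n = 3 and 3), with an adjusted p of 0.0133. Without the third 4HBP library it was 1.19, with an adjusted p of 0.00494. The call was lost without vehicle replicate 1 (1.57, adjusted p = 0.0686) and without vehicle replicate 2 (1.39, adjusted p = 0.0706).

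Bid, the BH3-only protein that caspase-8 cleaves to link death receptors to mitochondria, lies at chr6:120891930-120916853 on the minus strand. It read 8.68, 5.72 and 9.27 CPM with vehicle and 12.6, 13.4 and 16.5 CPM with 4HBP. The groups did not overlap, and the change was 0.85 ± 0.19 on the log2 scale, a 1.80-fold rise with an adjusted p of 0.032. Without the third 4HBP library it was 0.73, with an adjusted p of 0.0383. The call was lost without 4HBP replicate 2 (0.88, adjusted p = 0.0751), without vehicle replicate 1 (0.92, adjusted p = 0.101) and without vehicle replicate 2 (0.66, adjusted p = 0.0961).

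The other BH3-only genes did not pass the test. Bcl2l11 encodes BIM, which can bind all the anti-apoptotic proteins and activate the effectors directly. It read 19.6, 25.4 and 19.2 CPM with vehicle and 11.1, 10.5 and 19.4 CPM with 4HBP, so 4HBP replicates 1 and 2 were well below the vehicle libraries and replicate 3 lay among them. The log2 fold change was -0.64 ± 0.23 with an adjusted p of 0.12, and without 4HBP replicate 3 it was -0.98 with an adjusted p of 0.00582. Bbc3, whose product PUMA is a classical p53 target, read 9.46, 10.4 and 9.97 CPM with vehicle against 10.4, 12.1 and 15.8 CPM with 4HBP (log2 fold change 0.37 ± 0.16, adjusted p = 0.193). Without 4HBP replicate 3, the highest of these, the difference was 0.19 (adjusted p = 0.399). Bad, which growth factor signalling keeps phosphorylated and inactive, lay at 17 to 21.6 CPM with vehicle and 16.9 to 19 CPM with 4HBP, with a 95% interval of the log2 difference from -0.30 to 0.24.

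Among the anti-apoptotic genes, Bcl2l1, which encodes BCL-XL, read 50.1, 44.3 and 53.9 CPM with vehicle and 65.7, 65.1 and 58.8 CPM with 4HBP. This 1.28-fold rise (log2 0.35 ± 0.09) had an adjusted p of 0.046 and lay closest to the threshold. Without the third 4HBP library it was 0.41, with an adjusted p of 0.0227. The call was lost without 4HBP replicate 1 (0.32, adjusted p = 0.126), 4HBP replicate 2 (0.33, adjusted p = 0.128), vehicle replicate 1 (0.36, adjusted p = 0.147) or vehicle replicate 2 (0.28, adjusted p = 0.174).

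Bcl2 itself, the founding member of the family, read 14, 16.6 and 15.1 CPM with vehicle and 18.8, 19.7 and 26.9 CPM with 4HBP. The groups did not overlap, but the log2 fold change of 0.52 ± 0.15 did not pass the test (adjusted p = 0.0715), and without the third 4HBP library it was 0.34 (adjusted p = 0.091). Mcl1, a short-lived protein on which many progenitors depend, read 151, 159 and 185 CPM with vehicle and 199, 201 and 185 CPM with 4HBP, the nearest values of the groups both rounding to 185 (log2 fold change 0.24 ± 0.09, adjusted p = 0.132). Of the effectors, Bax read 56, 53.9 and 53.8 CPM with vehicle and 63.4, 59.6 and 61.3 CPM with 4HBP. These groups did not overlap either, but the difference was small, 0.17 ± 0.07 on the log2 scale with an adjusted p of 0.151. Bak1 read 129, 120 and 126 CPM with vehicle and 149, 141 and 111 CPM with 4HBP, with overlapping groups and an adjusted p of 0.645. Bak1 gave 0.22 without 4HBP replicate 3, its lowest, with an adjusted p of 0.067.

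**Figure D2:**
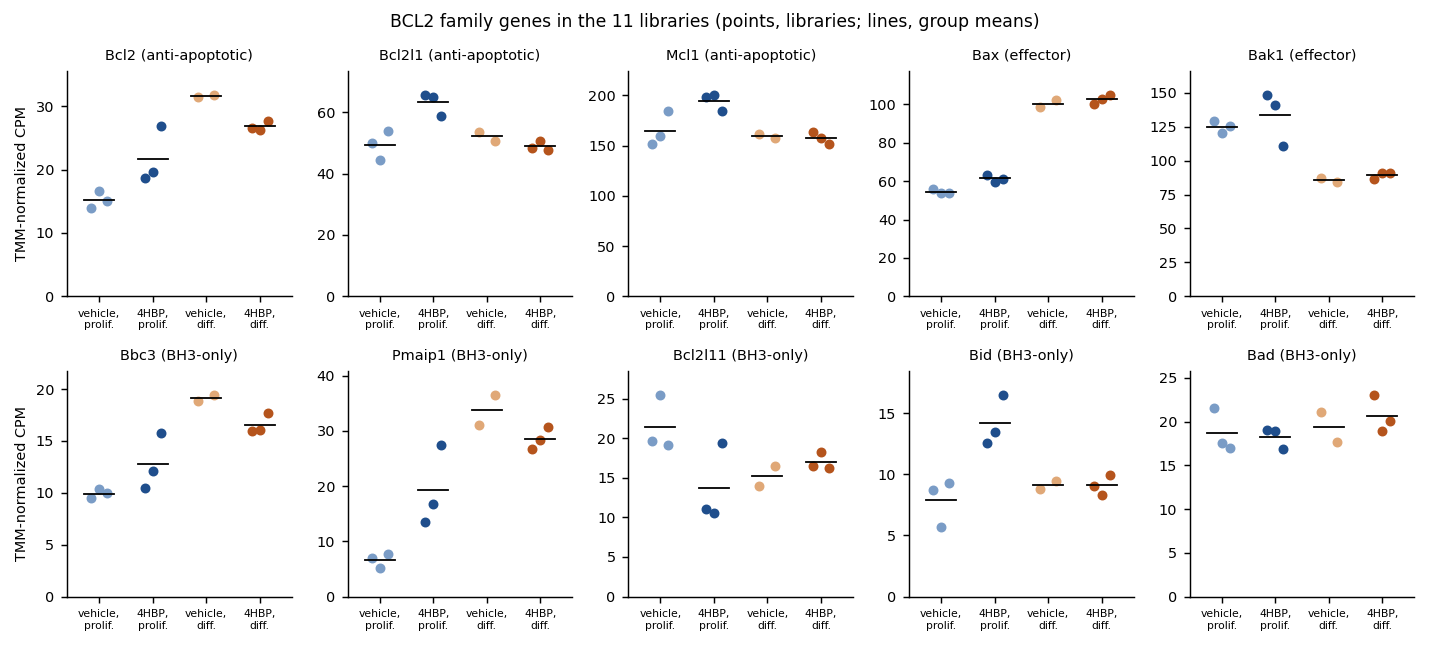
TMM-normalized CPM of the 10 BCL2 family genes in each library, by group, with vertical axes that start at 0 and differ between genes. In proliferation medium the 4HBP libraries of Pmaip1 (13.6 to 27.5 CPM) and Bid (12.6 to 16.5 CPM) all lay above the vehicle libraries, and in differentiation medium those of Bcl2 (26.3 to 27.6 CPM) all lay below them.

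Beside these genes, astrocyte markers and the summed markers of dividing cells read lower with 4HBP in proliferation medium. No marker of NSCs, neurons or the oligodendrocyte lineage was called there. The 5 astrocyte markers summed to 2873 to 3372 CPM with 4HBP and 4229 to 5242 CPM with vehicle, and 3 of them, Gfap, Aqp4 and Aldoc, fell by 0.68, 0.66 and 0.70 on the log2 scale. The 4 markers of dividing cells summed to 304 to 607 CPM with 4HBP and 620 to 788 CPM with vehicle, without overlap, although none of the 4 passed the test. The lowest of these sums, 304 CPM, was that of the third 4HBP library. Taken singly, 2 of the 4 markers did not overlap between the groups, against 31.3% of all genes tested. Fewer cells of a type and less RNA per cell cannot be told apart in these bulk cultures, and the part of these shifts in the changes of the family was not tested.

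The promoters of Bid, Bcl2 and Bax are shown because these genes stand for the 3 roles in the family and for the 3 patterns seen here, a rise with 4HBP in proliferation medium, opposite signs in the 2 media and a rise with differentiation medium. Each window runs from 250 bases before to 50 after the RefSeq start site in GRCm38.p6, 5′ to 3′ on the strand of the gene, all 3 being on the minus strand. The windows are chr6:120916775-120917074 for Bid, chr1:106714241-106714540 for Bcl2 and chr7:45466849-45467148 for Bax. Capitals mark every match, on either strand, to a GC box (GGGCGG), an E-box (CACGTG), the core of a cAMP response element (TGACGT), an ATF4 composite element (TGATGNAA), a FOXO element (TGTTTAC) or a p53 decamer. Matches can overlap.
Bid: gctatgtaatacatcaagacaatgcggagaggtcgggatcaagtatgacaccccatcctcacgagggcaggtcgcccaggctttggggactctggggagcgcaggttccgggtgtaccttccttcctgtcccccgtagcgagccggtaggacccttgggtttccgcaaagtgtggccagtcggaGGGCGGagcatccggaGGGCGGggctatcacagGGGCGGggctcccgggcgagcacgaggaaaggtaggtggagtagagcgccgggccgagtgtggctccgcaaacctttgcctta
Bcl2: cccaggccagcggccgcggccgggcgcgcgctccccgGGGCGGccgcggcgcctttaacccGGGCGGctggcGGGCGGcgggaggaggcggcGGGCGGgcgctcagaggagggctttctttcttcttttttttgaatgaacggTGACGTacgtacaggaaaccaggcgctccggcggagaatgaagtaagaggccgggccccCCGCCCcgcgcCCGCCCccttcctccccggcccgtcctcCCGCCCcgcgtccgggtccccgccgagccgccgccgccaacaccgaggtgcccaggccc
Bax: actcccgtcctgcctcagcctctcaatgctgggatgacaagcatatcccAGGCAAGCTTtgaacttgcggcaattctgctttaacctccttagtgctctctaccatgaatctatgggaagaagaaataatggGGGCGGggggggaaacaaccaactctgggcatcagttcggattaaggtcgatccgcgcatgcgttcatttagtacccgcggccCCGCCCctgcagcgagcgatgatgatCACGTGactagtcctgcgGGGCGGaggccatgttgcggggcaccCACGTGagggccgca
The Bid window held 3 GC boxes, the Bcl2 window 7 GC boxes and 1 TGACGT, and the Bax window 3 GC boxes, 2 E-boxes and 1 p53 decamer. RefSeq windows were found for 9 members, 15 windows in all since several genes have more than 1 start site. No window was found for Pmaip1, so its promoter was not searched. The GC box was in 10 of the 15 and in 35.7% of all 32851 windows. The Bbc3 windows at chr7:16310011-16310310 and chr7:16310181-16310480 overlap and share GC boxes, so the 15 windows are not all separate sequence. The p53 decamer was in 1 of the 15 and in 8.36% of all, the E-box in 2 and in 7.15%, TGACGT in 1 and in 7.51%, and the FOXO element in 2 (Bcl2l11 and Bbc3) and in 3.65%. The ATF4 composite element was in none of these 15 windows and in 3.97% of all. These are matches of letters and not sites of binding.

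The second comparison asked the same of 4HBP in differentiation medium. Here 1 of the 10 members was called, Bcl2, and it fell. Of 15484 genes tested 2.55% were called, 1.29% as lower and 1.26% as higher. The median log2 fold change over the members was -0.02, and the median absolute change was 0.09 both over the members and over all genes. Bcl2 read 31.5 and 31.8 CPM in the vehicle libraries and 26.6, 26.3 and 27.6 CPM with 4HBP, so each group was tight and they did not overlap. The change of -0.25 ± 0.06 on the log2 scale, a 1.19-fold fall, had an adjusted p of 0.0374. Its size hardly moved when any single library was left out (-0.23 to -0.27), but the adjusted p then lay between 0.0559 and 0.221, highest without vehicle replicate 1 (-0.25) and next without vehicle replicate 2 (-0.24, adjusted p = 0.161). Without 4HBP replicate 1, 2 or 3 the adjusted p was 0.0876, 0.103 and 0.0559. DESeq2, limma on log2(CPM+1) and the edgeR fit of all 11 libraries called no member in this medium, with 1378, 2660 and 644 genes at an unadjusted p under 0.05. At the adjusted threshold DESeq2 called 275 genes, with Bcl2 at an adjusted p of 0.199, and the other fits called none.

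The BH3-only genes Pmaip1 and Bbc3 were also lower in every 4HBP library than in either vehicle library. Pmaip1 read 31 and 36.5 CPM with vehicle and 26.7, 28.3 and 30.7 CPM with 4HBP (log2 fold change -0.25 ± 0.07, adjusted p = 0.101). Bbc3 read 18.9 and 19.4 CPM with vehicle and 15.9, 16.1 and 17.7 CPM with 4HBP (log2 fold change -0.22 ± 0.08, adjusted p = 0.168). Groups that did not overlap were found for 3 of the 10 members and for 32.8% of all genes tested. For the remaining 7 members the log2 fold change lay between -0.10 for Bcl2l1 and 0.15 for Bcl2l11. Their intervals were narrow for the abundant genes, from -0.06 to 0.11 for Bax, from -0.11 to 0.06 for Mcl1 and from -0.04 to 0.15 for Bak1. The replicates of Bax were among the closest of all, with 98.8 and 102 CPM with vehicle and 100.5, 103 and 105 CPM with 4HBP. Markers of dividing cells summed to 98 to 121 CPM with 4HBP and 70.7 to 94.1 CPM with vehicle in this medium, and 1 of the 4, Ccnb1, rose by 0.49 ± 0.12 (adjusted p = 0.0476); their part in the change of Bcl2 was not tested.

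The effect of 4HBP differed between the media for 3 members, Pmaip1, Bcl2 and Bcl2l1, each with the larger value in proliferation medium. In this interaction test 4.49% of 15920 genes were called, 2.01% with the larger and 2.48% with the smaller value in proliferation medium. For Pmaip1 the effect in proliferation medium exceeded that in differentiation medium by 1.78 ± 0.31 on the log2 scale (adjusted p = 0.00942). The differences were 0.76 ± 0.17 for Bcl2 (adjusted p = 0.0299) and 0.44 ± 0.11 for Bcl2l1 (adjusted p = 0.045). With limma on log2(CPM+1) none of the 3 was called, while 264 genes were. Bid missed the threshold with 0.85 ± 0.25 (adjusted p = 0.0747), as did Bbc3 with 0.58 ± 0.19 (adjusted p = 0.113) and Bcl2l11 with -0.80 ± 0.29 (adjusted p = 0.151). Bax, Bak1, Mcl1 and Bad differed by -0.12 to 0.26.

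The interaction of Pmaip1 was called in 10 of the 11 fits that left out a library, the exception being vehicle replicate 2 in differentiation medium (1.65, adjusted p = 0.0571). That of Bcl2 was called in 5 of the 11. It was lost without any of the 5 differentiation libraries (0.74 to 0.78, adjusted p = 0.0683 to 0.118) and without vehicle replicate 1 in proliferation medium (0.70, adjusted p = 0.0778). That of Bcl2l1 was called in 2 of the 11, without 4HBP replicate 3 (0.50, adjusted p = 0.0118) and without vehicle replicate 3 in proliferation medium (0.51, adjusted p = 0.0153), and was lost without each of the others (0.37 to 0.49, adjusted p = 0.0683 to 0.242). Without 4HBP replicate 3 in proliferation medium Bcl2l11 was called as well, with -1.13 and an adjusted p of 0.00312. Bbc3 was called without 4HBP replicate 1 in proliferation medium (0.70, adjusted p = 0.0296), and Bid and Mcl1 without vehicle replicate 3 in that medium (0.98 and 0.34, adjusted p = 0.0374 and 0.0338).

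**Figure D3:**
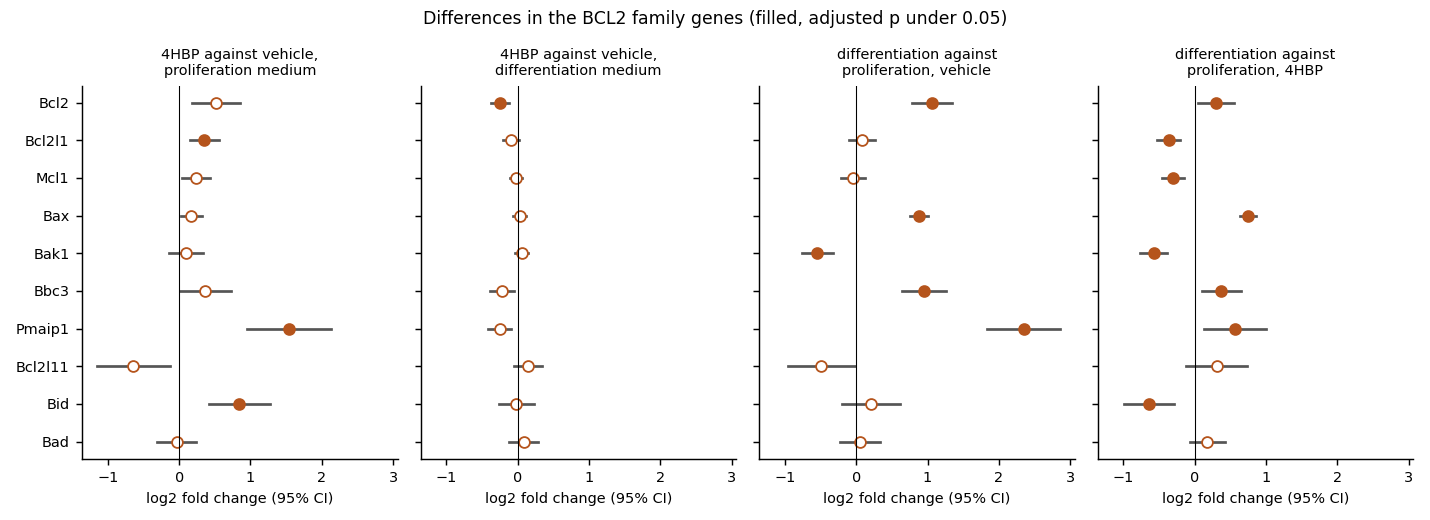
Log2 fold change of each BCL2 family gene with its 95% confidence interval in 4 comparisons from edgeR, filled where the adjusted p was under 0.05. With 4HBP in proliferation medium Pmaip1 (1.54), Bid (0.85) and Bcl2l1 (0.35) were called, in differentiation medium Bcl2 (-0.25), and between the media in vehicle cultures Pmaip1 (2.35), Bcl2 (1.06), Bbc3 (0.95), Bax (0.88) and Bak1 (-0.55).

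The third comparison set differentiation against proliferation medium in vehicle cultures and gave the largest differences in the family. There were 4 members higher in differentiation medium, Pmaip1, Bcl2, Bbc3 and Bax, and 1, Bak1, was lower. Most genes differed between the media, with 61.4% of 15920 genes called, 30.8% as higher and 30.6% as lower (with limma on log2(CPM+0.5), 60.2% of the calls were higher, against 50.2% here), so the share of members called, 5 of 10, was no higher than the background. Groups did not overlap for 6 of the 10 members and for 76.4% of all genes. All 5 calls held in each of the 11 fits that left out a library.

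The effectors moved in opposite directions. Bax read 56, 53.9 and 53.8 CPM in proliferation medium and 98.8 and 102 CPM in differentiation medium, a 1.84-fold difference (log2 0.88 ± 0.06, adjusted p = 4.95e-08). Bak1 read 129, 120 and 126 CPM in proliferation medium and 87.2 and 84.1 CPM in differentiation medium (log2 -0.55 ± 0.10, adjusted p = 0.000416). Among the anti-apoptotic genes only Bcl2 passed the test, with 14 to 16.6 CPM against 31.5 and 31.8 CPM, a 2.08-fold difference (log2 1.06 ± 0.13, adjusted p = 1.34e-05). Bcl2l1 and Mcl1 gave 0.08 ± 0.08 and -0.05 ± 0.08, with 95% intervals of -0.11 to 0.26 and -0.22 to 0.13.

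Of the BH3-only genes, Pmaip1 rose 5.08-fold, from 5.23 to 7.68 CPM to 31 and 36.5 CPM (log2 2.35 ± 0.24, adjusted p = 2.4e-06). Bbc3 rose 1.93-fold, from 9.46 to 10.4 CPM to 18.9 and 19.4 CPM (log2 0.95 ± 0.14, adjusted p = 7.02e-05). Bcl2l11 gave -0.49 ± 0.22 (adjusted p = 0.0671), and it was called without 4HBP replicate 2 or 3 in proliferation medium (-0.48 and -0.49, adjusted p = 0.0467 and 0.00362), libraries that enter this contrast through normalization and the estimate of spread. Bid and Bad gave 0.21 ± 0.19 and 0.05 ± 0.13. Beside these differences, the markers of dividing cells summed to 620 to 788 CPM in proliferation medium and 70.7 to 94.1 CPM in differentiation medium, and those of the oligodendrocyte lineage to 2721 to 3328 and 6796 to 7122 CPM. All 6 NSC markers and all 4 markers of dividing cells were lower in differentiation medium, and their part in the changes of the family was not tested.

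With 4HBP in both media, 8 members were called, 4 as higher and 4 as lower in differentiation medium, against 67.2% of all genes (33.3% and 33.8%). Groups did not overlap for 6 members and for 71.5% of all genes. Higher in differentiation medium were Bax (0.74 ± 0.05), Pmaip1 (0.57 ± 0.20), Bbc3 (0.37 ± 0.13) and Bcl2 (0.30 ± 0.12), all on the log2 scale. Lower were Bid (-0.64 ± 0.16), Bak1 (-0.58 ± 0.09), Bcl2l1 (-0.37 ± 0.08) and Mcl1 (-0.30 ± 0.07). The values for Bax and Bak1 lay within 0.14 of those in vehicle cultures, whereas Pmaip1 and Bcl2 were closer between the media under 4HBP. With 4HBP the 3 libraries of Bcl2 read 18.8, 19.7 and 26.9 CPM in proliferation medium and 26.6, 26.3 and 27.6 CPM in differentiation medium, and the groups overlapped. The calls for Bcl2, Pmaip1 and Bbc3 were lost without 4HBP replicate 1 in proliferation medium (adjusted p = 0.148, 0.0965 and 0.085, at 0.20, 0.37 and 0.25), and without 4HBP replicate 3 in differentiation medium (adjusted p = 0.0904, 0.072 and 0.0699, at 0.28, 0.52 and 0.33). Bcl2 and Pmaip1 were also lost without 4HBP replicate 2 in proliferation medium (adjusted p = 0.0922 and 0.069, at 0.25 and 0.49) or in differentiation medium (adjusted p = 0.0616 and 0.0503, at 0.32 and 0.58), and Bcl2 without 4HBP replicate 1 in differentiation medium (adjusted p = 0.0691, at 0.31). Without 4HBP replicate 3 in proliferation medium the differences of Bcl2, Bbc3 and Pmaip1 were larger, at 0.48, 0.55 and 0.91, and Bcl2l11 was called at 0.64 (adjusted p = 0.000699). Both limma fits called 6 members here, without Bcl2 and Pmaip1. Of 27295 genes they called 11235 on log2(CPM+0.5) and 11214 on log2(CPM+1). The edgeR fit on the libraries of these 2 groups alone called 7 members, without Bcl2, and 10149 of 15050 genes.

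The ratio of Bax to Bcl2, often read as a summary of effector against protector, was computed from TPM in each library and is given as a description with no test. In proliferation medium it was 39.7, 32.8 and 36.2 with vehicle and 33.6, 30.8 and 23.2 with 4HBP, with overlapping groups and the lowest value in the third 4HBP library. The means were 36.2 ± 3.44 (SD, n = 3) and 29.2 ± 5.37 (SD, n = 3). In differentiation medium the order was the other way round, with 30.3 and 31.2 for vehicle and 36.0, 38.0 and 36.9 for 4HBP, which did not overlap. The means were 30.7 ± 0.62 (SD, n = 2) and 37.0 ± 0.99 (SD, n = 3). The denominator, Bcl2, was 2.65 to 3.03 TPM with vehicle and 3.40 to 5.36 TPM with 4HBP in proliferation medium, and 7.88 and 7.91 TPM with vehicle and 6.47 to 6.68 TPM with 4HBP in differentiation medium. The numerator, Bax, was 99.3 to 105 TPM with vehicle and 113 to 124 TPM with 4HBP in proliferation medium, and 239 and 247 TPM with vehicle and 236 to 246 TPM with 4HBP in differentiation medium.

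By role, the effectors held 48.9 to 54.5% of the summed TPM of the 10 members in proliferation medium and 54.6 to 56.8% in differentiation medium. The anti-apoptotic genes held 28.3 to 33.7% and 25.1 to 27.3%, and the BH3-only genes 14.7 to 19.1% and 17.6 to 18.8%. Within each medium the range of each share overlapped between 4HBP and vehicle. The shares describe RNA and not the amount of protein.

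The quantification also gave the mean transcript length of each gene, weighted by the share of its annotated transcripts, and for Mcl1 this differed by medium without overlap. It was 3418 bases in all 6 proliferation libraries and 3113, 3059, 3047, 3218 and 3092 bases in the 5 differentiation libraries. The difference of 312 bases had p = 0.00216 by a two-sided exact permutation test over the 462 arrangements of the libraries, the smallest this design can give, and an adjusted p of 0.00974 over the 9 members with more than 1 transcript. Mcl1 lies at chr3:95658788-95663176 on the plus strand (GRCm38) and has 2 annotated transcripts, Mcl1-201 of 3418 bases in 3 exons and Mcl1-202 of 858 bases in 4 exons. Read through these lengths, Mcl1-202 held 0% of Mcl1 transcripts in each proliferation library, 7.81 and 12.7% in the vehicle differentiation libraries and 11.9, 14.0 and 14.5% with 4HBP. The groups with and without 4HBP overlapped.

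Mcl1-202 lacks 138 bases inside the first coding exon, chr3:95658909-95659046, a number of bases that keeps the reading frame. It is annotated from start to stop codon alone, while Mcl1-201 has 2422 bases outside its coding sequence. The stretch is shown because it is the internal sequence by which the transcripts differ, with 15 bases on each side in lower case and the stretch left out of Mcl1-202 in capitals.
Mcl1-201: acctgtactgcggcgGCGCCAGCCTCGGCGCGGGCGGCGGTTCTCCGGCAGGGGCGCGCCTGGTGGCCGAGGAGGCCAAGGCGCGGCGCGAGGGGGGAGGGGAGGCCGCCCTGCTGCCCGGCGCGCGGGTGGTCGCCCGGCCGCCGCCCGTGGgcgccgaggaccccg
Mcl1-202: acctgtactgcggcggcgccgaggaccccg
The mean fragment length that the quantification used moved with medium as well. Taken for the longest gene from the gap between its length and its effective length, it was 194 to 205 bases in proliferation and 164 to 180 bases in differentiation libraries, and its part in the Mcl1 difference was not tested. Total Mcl1 counts did not show a like difference in vehicle cultures, with 151 to 185 CPM in proliferation and 158 to 162 CPM in differentiation medium. With 4HBP they were lower in differentiation medium, at 152 to 163 CPM against 185 to 201 CPM (log2 -0.30, adjusted p = 0.00204 by edgeR's test).

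Bak1 was the other member whose length separated the media, with 1923 to 2035 bases in proliferation and 2070 to 2164 bases in differentiation libraries (difference 130 bases, exact permutation p = 0.00216, adjusted p = 0.00974). Bak1 has 4 annotated transcripts, so the length does not give their shares. The 7 further members with more than 1 transcript had adjusted p-values of 0.208 to 0.848 in the same exact test. Within proliferation medium the length of Bid was 2115, 2107 and 2127 bases with vehicle and 2189, 2189 and 2177 bases with 4HBP, without overlap. It lay between 2132 and 2209 bases in differentiation medium, where the groups overlapped. That of Bbc3 was apart as well in proliferation medium, with 1346, 1337 and 1331 bases with vehicle and 1137, 1177 and 1318 bases with 4HBP. The lengths of all other members with more than 1 transcript overlapped between 4HBP and vehicle in that medium. Bid and Bbc3 are named because theirs were apart, and the share of all genes with lengths apart is not given. With 3 libraries in each group a permutation test cannot pass 0.05, and none was made.

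**Figure D4:**
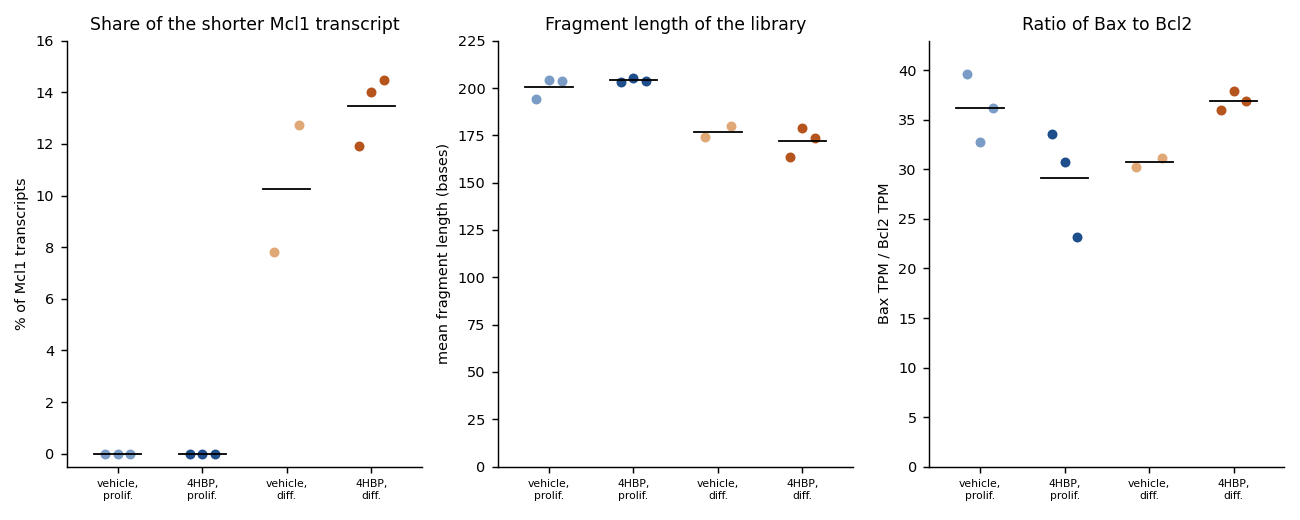
Share of Mcl1-202 among Mcl1 transcripts, mean fragment length of the library and ratio of Bax to Bcl2 in TPM, one point a library with group means as lines. The share was 0% in all 6 proliferation libraries and 7.81 to 14.5% in the 5 differentiation libraries, where fragments were shorter (164 to 180 against 194 to 205 bases), and the mean ratio with 4HBP was 29.2 against 36.2 with vehicle in proliferation medium and 37.0 against 30.7 in differentiation medium.

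Another 9 genes of the extended family were tested, and none was called with 4HBP in either medium. Bcl2l2, which encodes the anti-apoptotic BCL-W, differed by 0.02 ± 0.08 on the log2 scale in proliferation medium and by 0.34 ± 0.07 between the media in vehicle cultures (adjusted p = 0.00117). Bmf, a BH3-only protein tied to the cytoskeleton, was the gene of the extended family that rose most with differentiation medium, from 9.32 to 10.5 CPM to 34.8 and 36.1 CPM (log2 1.85 ± 0.09, adjusted p = 4.37e-09). With 4HBP it gave -0.37 ± 0.13 in proliferation medium (adjusted p = 0.118). Hrk, a BH3-only gene of neurons, was low and rose by 0.83 ± 0.32 with differentiation medium (adjusted p = 0.0416), and Bok, an effector-like member, gave 0.17 ± 0.32.

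Of the more distant relatives, Bnip3 and Bnip3l, which mark mitochondria for mitophagy, were higher in differentiation medium by 0.41 ± 0.08 and 0.55 ± 0.10. Bcl2l12, Bnip2 and Bcl2l13 were lower, at -1.30 ± 0.16, -0.49 ± 0.07 and -0.25 ± 0.08. Bcl2l10, Bcl2a1a, Bcl2a1b, Bcl2a1d, Bik, Bcl2l14 and Bcl2l15 had at most 5 counts in any library and were not tested.

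Downstream of the family, none of the 15 genes of the apoptosome, caspases and released mitochondrial factors was called with 4HBP in proliferation medium, although 5 had an unadjusted p under 0.05, against 25.1% of all genes. Their median log2 fold change was -0.04, against 0.00 over all genes. In differentiation medium 1 of the 15 was called, Cycs, which encodes cytochrome c and rose by 0.20 ± 0.05 (adjusted p = 0.0413), a gene named here after its values were seen; the call was lost without each library but 4HBP replicate 1 (0.17 to 0.24, adjusted p = 0.108 to 0.347). The background there was 1.26% called as higher. By medium in vehicle cultures 4 of the 15 were higher and 6 lower, against 30.8% and 30.6% of all genes, led by Endog (2.48 ± 0.22), Casp8 (-3.38 ± 0.40) and Casp9 (0.44 ± 0.08), the caspase that the apoptosome activates.

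Of the 8 inhibitor of apoptosis genes 5 were tested, and none was called with 4HBP in either medium, with 1 at an unadjusted p under 0.05 in proliferation medium and 0 in differentiation medium, against 25.1% and 15.9% of all genes. Birc5 (survivin), which is made in dividing cells, and Xiap were lower with differentiation medium (-2.46 ± 0.28 and -0.54 ± 0.09). Of 18 binding partners and turnover factors, 1 was called with 4HBP in proliferation medium, Vdac3, a channel of the outer mitochondrial membrane (0.38 ± 0.07, adjusted p = 0.0215), against 3.74% of all genes called as higher. The call was lost without 4HBP replicate 2 or vehicle replicate 1 or 2 (0.34 to 0.41, adjusted p = 0.0761 to 0.104). By medium 2 of the 18 were higher and 11 lower, against 30.8% and 30.6% of all genes, led by Dynll2 (2.19 ± 0.06), a dynein light chain that binds BMF, Itpr1 (2.34 ± 0.10) and Bag3 (-1.49 ± 0.14).

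Of 12 tested transcription factors known to act on family genes, 2 rose with 4HBP in proliferation medium and none was called in differentiation medium, where 4 had an unadjusted p under 0.05. The backgrounds were 3.74% of all genes called as higher in the former and 15.9% with such a p in the latter. Trp53, the activator of Bbc3, Pmaip1 and Bax after DNA damage, read 56.7, 61.8 and 63.7 CPM with vehicle and 80.8, 86.3 and 87.8 CPM with 4HBP. This rise of 0.48 ± 0.08 on the log2 scale (adjusted p = 0.00996) differed from the effect in differentiation medium (interaction 0.38 ± 0.09, adjusted p = 0.0339). Without 4HBP replicate 3 the rise was 0.46 (adjusted p = 0.0076), and it was lost as a call without vehicle replicate 1 or 2 (0.44 and 0.50, adjusted p = 0.0641 and 0.0529). Its interaction was called without 4HBP replicate 1 or 3 or vehicle replicate 3 in proliferation medium, and lost without each of the other 8 libraries (0.34 to 0.41, adjusted p = 0.0566 to 0.185). Atf4, a factor of the integrated stress response, rose by 0.60 ± 0.15 (adjusted p = 0.0414), from 253 to 397 CPM with vehicle to 440 to 509 CPM with 4HBP. It was 0.66 without 4HBP replicate 3 (adjusted p = 0.0226), and the call was lost without 4HBP replicate 1 or 2 or vehicle replicate 1 or 2 (0.47 to 0.59, adjusted p = 0.0884 to 0.16). Ddit3 (CHOP), its target, read 13.8, 10.1 and 22.6 CPM with vehicle and 20.7, 26.6 and 45.4 CPM with 4HBP, a log2 fold change of 1.00 ± 0.33 that did not pass the test (adjusted p = 0.0991). The difference was 0.62 without 4HBP replicate 3, its highest library (adjusted p = 0.168), and without vehicle replicate 3 it was 1.38 and called (adjusted p = 0.0476). By medium 3 of the 12 were higher and 7 lower in vehicle cultures, against 30.8% and 30.6% of all genes, led by Stat3 (-1.21 ± 0.06), Foxo3 (1.16 ± 0.09) and Foxo1 (0.82 ± 0.08).

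The genes whose log2 CPM followed each member most closely over the 11 libraries were Kcnk2 for Bcl2 (Pearson r = 0.991), Scrn1 for Bax (0.996), Elp5 for Bak1 (0.991), Arhgap20 for Bbc3 (0.991) and Ephx1 for Pmaip1 (0.989). They were Wdr72 for Bid (0.971), Prkab1 for Bcl2l1 (0.969), Rsl24d1 for Mcl1 (0.957), 3110039I08Rik for Bcl2l11 (0.921) and Gm10327 for Bad (0.915). The points share their medium and treatment and fall apart by medium, and each gene is the highest of 15919 candidates, so the coefficients are descriptions. Within the 6 proliferation libraries alone the same pairs gave 0.906 to 0.993.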

How the data were processed

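RNA was sequenced as stranded, polyA-selected, paired-end libraries. Per the labels and the methods of the study, the authors trimmed reads with cutadapt, checked them with FastQC 0.11.5, aligned them with Bowtie2 2.2.9 and quantified genes with RSEM 1.3.0 on mm10 (GRCm38) and GENCODE annotation. The deposited tables give, for each gene and library, an expected count (reads shared between genes are divided by estimate, so it need not be whole), TPM and FPKM, with a transcript length and an effective length. The deposited expected counts were rounded for count tests, the deposited TPM were used to compare genes within a library, and the FPKM made by the authors were not used.

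Counts were tested with edgeR 4.0.16 (R 4.3.3) by its quasi-likelihood test with TMM normalization, filterByExpr and Benjamini-Hochberg adjustment over all genes tested, and an adjusted p under 0.05 was called. Effects of 4HBP were fitted within each medium. Medium contrasts and the interaction were fitted on all 11 libraries, and the comparisons by medium and by treatment share libraries. In these joint fits both media share the estimate of the spread between replicates, although the spread was larger in proliferation medium. The study used limma on log2(CPM+1), which was run here as an alternative (limma 3.58.1), along with DESeq2 1.42.0, library totals, no filter, a block for the replicate number, and fits that lacked each library in turn. The call rule of the study, an unadjusted p under 0.05 with an absolute log2 fold change over 0.58, was added after seeing the data. Transcript lengths were compared between media by exact permutation. Scripts were tested on simulated counts. Errors after ± are SE for log2 fold changes and SD for ratios. Counting floors cover counting error only.

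The members and gene lists were chosen with earlier results of these data known. Of each pathway list, at most the 3 genes with the smallest adjusted p under 0.05 were named in proliferation medium and by medium, with Trp53, Atf4 and Ddit3 in any case; every tested gene of the extended family was named, and for each member the gene with the highest correlation. For Ddit3, whose symbol has 2 identifiers, the one with more counts was used. Promoter windows came from RefSeq (GRCm38.p6) and transcript structures from GENCODE; the annotation matched 53706 of 53801 identifiers.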

Additional observations from a re-analysis of the deposited data

Results flagged for a closer look

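For 3 members the effect of 4HBP in proliferation medium differed from that in differentiation medium by edgeR's interaction test (n = 3 and 3 libraries, and 3 and 2). The same test called 4.49% of 15920 genes. The difference was 1.78 on the log2 scale for Pmaip1 (1.54 in proliferation and -0.25 in differentiation medium), 0.756 for Bcl2 (0.52 and -0.25) and 0.443 for Bcl2l1 (0.35 and -0.10), with adjusted p-values of 0.00942, 0.0299 and 0.045. With limma on log2(CPM+1) none of the 3 was called. In edgeR the calls for Bcl2 and Bcl2l1 were lost without any single 4HBP library of differentiation medium (adjusted p = 0.0683 to 0.12). That for Bcl2 was also lost without vehicle replicate 1 of proliferation medium (adjusted p = 0.0778). The call for Bcl2l1 was also lost without 4HBP or vehicle replicate 1 or 2 of proliferation medium (adjusted p = 0.0683 to 0.0911). Without vehicle replicate 1 or 2 of differentiation medium, which leaves 1, the difference was 0.76 and 0.75 for Bcl2 and 0.39 and 0.49 for Bcl2l1. For Bcl2 every 4HBP library was above every vehicle library in proliferation medium and below both in differentiation medium. Groups did not overlap for 31.3% and 32.8% of all genes tested in these media. By edgeR's test Bcl2 was not called in proliferation medium (adjusted p = 0.0715). Its call in differentiation medium (adjusted p = 0.0374) was lost without any single 4HBP library (adjusted p = 0.0559 to 0.103). Without vehicle replicate 1 or 2 there, which leaves 1, its change was -0.25 and -0.24.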

How the results depend on the processing

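With 4HBP in proliferation medium, where 1074 genes and 3 members were called, DESeq2 called 1633 genes and 5 members. The fit of all 11 libraries called 2668 and 7, and no filter 1546 and 5. Limma on log2(CPM+0.5) called 28 genes and 0 members (4078 genes at an unadjusted p under 0.05), and on log2(CPM+1) 18 and 0 (4371). The call rule of the study, added after seeing the data, called 651 genes and 2 members (Pmaip1 and Bid). In differentiation medium (395 genes and 1 member) DESeq2 called 275 genes and 0 members, and the fit of all 11 libraries 0 and 0 (644). Limma on log2(CPM+0.5) and log2(CPM+1) called 0 and 0 (2491 and 2660), no filter 778 and 2, and the added rule 66 and 0. By medium the added rule called 5219 genes and 4 members (without Bak1) in vehicle cultures, and 5697 genes and 2 members under 4HBP. For the interaction (715 genes and 3 members) DESeq2 called 1086 genes, limma 158 (+0.5) and 264 (+1) with 0 members each, no filter 1616 and 6, and the added rule 926 genes and 4 members (Bcl2, Pmaip1, Bcl2l11 and Bid). The cause of these differences was not tested.

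Leaving out each library in turn gave 107 (without vehicle replicate 1) to 1429 genes (without 4HBP replicate 3) and 0 to 4 members in proliferation medium, 77 to 288 genes and 0 members in differentiation medium, 7907 to 10477 genes and 5 to 6 members by medium in vehicle cultures, 9830 to 10915 genes and 5 to 9 members under 4HBP, and 124 to 1100 genes and 0 to 5 members for the interaction. The ratio of Bax to Bcl2 was 2.9, 3.6, 3.83 and 3.17 in CPM, which is not per length, for 4HBP and vehicle in proliferation and 4HBP and vehicle in differentiation medium, and 27.0 to 32.2, 34.5 to 37.9, 36.4 to 37.4 and 30.3 to 31.2 in TPM without single libraries.

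Signs turned only for members that were not called. Bad in proliferation medium was 0.01 in the limma fits (-0.10 to 0.08 without single libraries), Mcl1 by medium in vehicle cultures 0.04 with library totals and 0.05 and 0.04 with limma (-0.11 to 0.04), and without single libraries Bad spanned -0.04 to 0.22 and Bid -0.08 to 0.05 in differentiation medium, Mcl1 -0.05 to 0.00 there, Bad -0.07 to 0.19 by medium, and Bak1 -0.06 to 0.15 and Bad -0.26 to 0.00 for the interaction. With library totals the median of all genes by medium was 0.114, against 0.026.

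The deviations of same-numbered libraries from their group means correlated at -0.127 to 0.0832 between 4HBP and vehicle. With 2 or 3 libraries in each group these values cannot settle whether replicate numbers pair the libraries. With the replicate block 534 genes and 2 members (Pmaip1 and Bid) were called in proliferation medium, 745 and 2 (Bcl2 and Pmaip1) in differentiation medium, with Mcl1 at 0.00, and 3 for the interaction (Bcl2, Pmaip1 and Bid), with Bak1 at -0.02.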
